A study of Mus musculus with 6 samples.

Results

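The colony stimulating factors and their receptors are 8 genes of the mouse genome, 3 for secreted ligands (Csf1, Csf2 and Csf3) and 5 for receptor chains (Csf1r, Csf2ra, Csf2rb, Csf2rb2 and Csf3r). They were taken by name from a table of raw read counts for 53800 genes, and 7 of the 8 had enough counts to be tested. The libraries came from NCTC 1469, a line derived from mouse liver that is labelled hepatocytes and wild type. 3 libraries were of cells cultured for 6 days on a random positioning machine (simulated microgravity), an instrument that averages out the direction of gravity by rotating the flask, and 3 of cells cultured for the same time at normal gravity. Both groups shared the medium, DMEM with 10% FBS, and no label names melatonin, the agent in the title of the series, for any of these libraries. The replicates are samples of 1 line that the labels do not tie to separate cultures, so p-values measure the spread between these libraries, which may be technical.

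Each colony stimulating factor works through its own receptor. CSF1, also called M-CSF, keeps macrophages alive and dividing by binding CSF1R, a receptor tyrosine kinase of the family that also holds KIT, FLT3 and the PDGF receptors, and liver macrophages depend on it. CSF2, or GM-CSF, binds the alpha chain encoded by Csf2ra, which then recruits a beta chain that carries the kinase JAK2 and activates STAT5. Mice have a pair of beta chain genes, Csf2rb for the chain shared by the receptors of GM-CSF, IL-3 and IL-5, and Csf2rb2 for a chain that serves IL-3. CSF3, or G-CSF, drives the production of neutrophils through CSF3R.

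The libraries held 30474792 to 34318208 counts in simulated microgravity and 31406875 to 32797684 at normal gravity. Normal gravity replicate 1 stood apart: across 14509 genes its log2 CPM correlated at 0.936 with both other libraries of its group, which correlated at 0.985 with each other, and at 0.943 to 0.946 with the simulated microgravity libraries. CPM are counts scaled to a common library total, with TMM factors. All libraries entered the comparisons, and values without this one are given beside most of them. The label hepatocytes had no counterpart in the markers. Of 15 hepatocyte markers 12, among them Alb, Apob and Hnf4a, had 0 counts in all 6 libraries, and the list summed to 0.0901 to 0.204 CPM in simulated microgravity and to at most 0.183 CPM at normal gravity. Of 15 macrophage markers, among them Adgre1, Cd68 and Cd14, 13 were tested and none was at 0. The list summed to 8298 to 9686 CPM in simulated microgravity and 4954 to 9144 CPM at normal gravity, where the highest sum was that of replicate 1. Lyz2 was the largest part, with means of 4052 CPM in simulated microgravity and 1977 CPM at normal gravity (adjusted p = 0.46 in the edgeR test used below). In that test without normal gravity replicate 1, Lyz2 was 2.07 log2 units higher in simulated microgravity (adjusted p = 0.000252). C1qa, C1qb and C1qc were low, with means of at most 2.26 CPM in either group. In such bulk libraries, fewer cells of a type and less RNA per cell cannot be told apart.

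Windows of 300 bases around the gene start in RefSeq on GRCm38.p6 were searched for 5 of the 8 genes. Each ran from 250 bases before the start to 50 bases after it. Csf1r was left out of the search. The windows of Csf1, Csf2, Csf2rb2 and Csf2ra are shown, although of these only Csf2rb2 passed the edgeR test used below with all libraries. The marked motifs were chosen with earlier results of these data or the sequences known. In the windows of the ligand genes Csf1 and Csf2, capitals mark the NF-kB motif searched, which is GGGAA, any 3 bases, then CC, on either strand. In those of the receptor genes Csf2rb2 and Csf2ra they mark GAGGAA, the core of sites of the myeloid factor encoded by Spi1, or its reverse complement. The Csf1 window is chr3:107760420-107760719, the Csf2 window chr11:54249850-54250149, the Csf2rb2 window chr15:78305672-78305971 and the Csf2ra window chr19:61228369-61228668, all on the minus strand and given from 5′ to 3′.
Csf1: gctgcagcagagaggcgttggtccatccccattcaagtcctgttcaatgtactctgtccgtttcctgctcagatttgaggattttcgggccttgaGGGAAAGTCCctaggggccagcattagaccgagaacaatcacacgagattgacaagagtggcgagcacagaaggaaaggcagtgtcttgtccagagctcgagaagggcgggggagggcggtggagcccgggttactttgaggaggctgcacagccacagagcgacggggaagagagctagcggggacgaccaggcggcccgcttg
Csf2: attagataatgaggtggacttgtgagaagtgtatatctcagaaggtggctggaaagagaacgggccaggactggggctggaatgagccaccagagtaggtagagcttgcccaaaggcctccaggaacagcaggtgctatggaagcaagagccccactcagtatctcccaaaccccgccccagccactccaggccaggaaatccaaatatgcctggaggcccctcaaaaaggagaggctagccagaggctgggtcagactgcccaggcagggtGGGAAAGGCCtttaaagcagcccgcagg
Csf2rb2: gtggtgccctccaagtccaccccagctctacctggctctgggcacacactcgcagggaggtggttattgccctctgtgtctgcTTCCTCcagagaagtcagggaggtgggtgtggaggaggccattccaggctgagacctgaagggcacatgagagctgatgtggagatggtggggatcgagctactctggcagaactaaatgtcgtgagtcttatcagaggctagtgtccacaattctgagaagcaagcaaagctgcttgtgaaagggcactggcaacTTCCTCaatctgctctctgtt
Csf2ra: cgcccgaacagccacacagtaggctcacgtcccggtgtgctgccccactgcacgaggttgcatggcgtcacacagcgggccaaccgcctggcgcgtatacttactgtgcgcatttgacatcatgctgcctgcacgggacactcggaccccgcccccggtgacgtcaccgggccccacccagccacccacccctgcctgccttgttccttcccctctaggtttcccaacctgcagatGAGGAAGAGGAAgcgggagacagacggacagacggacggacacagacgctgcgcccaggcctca
The NF-kB motif had 1 match in each ligand window, at bases 96 to 105 of Csf1 and 273 to 282 of Csf2. It had none in the searched windows of receptor genes. Of 32851 windows of all genes, 5.78% held at least 1 match. GAGGAA had a pair of matches in each of the receptor windows, at bases 84 to 89 and 280 to 285 of Csf2rb2 and at bases 237 to 242 and 243 to 248 of Csf2ra, and none in the ligand windows. The window of Csf3r, which is not shown, held 1, and 28.3% of all windows held at least 1. Of the other motifs searched on both strands, the AP-1 motif TGANTCA (7.81% of all windows) and the TATA box TATAAA (13.6%) matched none of the 5 windows, and the GC box GGGCGG (35.7%) matched those of Csf1, Csf2 and Csf2ra. The RefSeq start of Csf2 lies 232 bases upstream of the start of the gene in the count table, so this window does not border the counted gene. A match is a description of the letters and not a bound site.

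Per length, Csf1r was the most abundant of the 8 genes and Csf3r was near 0. On the scale of CPM per kilobase of gene length, the level of Csf1r was 537 ± 6.01 in simulated microgravity and 466 ± 7.18 at normal gravity (SD, n = 3 each). Its mean over all 6 libraries, 501 CPM per kilobase, ranked 111 among the 14509 tested genes. In simulated microgravity the order of the levels was Csf1r, Csf2ra at 88.0 ± 3.75, Csf1 at 78.7 ± 2.08, Csf2rb2 at 70.6 ± 4.11, Csf2rb at 64.8 ± 19.6, Csf2 at 11.1 ± 1.13 and Csf3 at 10.6 ± 1.76 CPM per kilobase (SD, n = 3). Neighbours in this order had ranges that did not overlap, except Csf2rb2 with Csf2rb and Csf2 with Csf3, while the wide range of Csf2rb, from 49.3 to 86.8, also reached those of Csf1 and Csf2ra. The place of Csf2ra depends on the length used. The deposited length is 1849 bases, and with the 2277 bases of its longest GENCODE M21 transcript, a setting chosen after seeing the data, its level in simulated microgravity was 71.5 ± 3.04 CPM per kilobase, below Csf1 and overlapping Csf2rb2 at 70.6 ± 4.11. At normal gravity, with the deposited lengths, Csf1 came second, at 138 ± 22.2 CPM per kilobase, ahead of Csf2ra at 71.0 ± 16.3, and the ranges of these neighbours did not overlap. With the longer length Csf2ra stood at 57.7 ± 13.2 and kept its place. Next, on the deposited lengths, came Csf2rb2 at 43.4 ± 2.82, Csf2rb at 39.7 ± 25.7, Csf2 at 17.3 ± 0.915 and Csf3 at 10.3 ± 4.47 CPM per kilobase, where the range of Csf2rb, from 14.1 to 65.5, overlapped those of both its neighbours and of Csf2ra, and Csf2 stood above Csf3 without overlap. Csf3r had 2 counts in simulated microgravity replicate 2 and 0 in the other 5 libraries, and 0 counts over the 3 normal gravity libraries allow at most 0.0311 CPM.

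**Figure D1:**
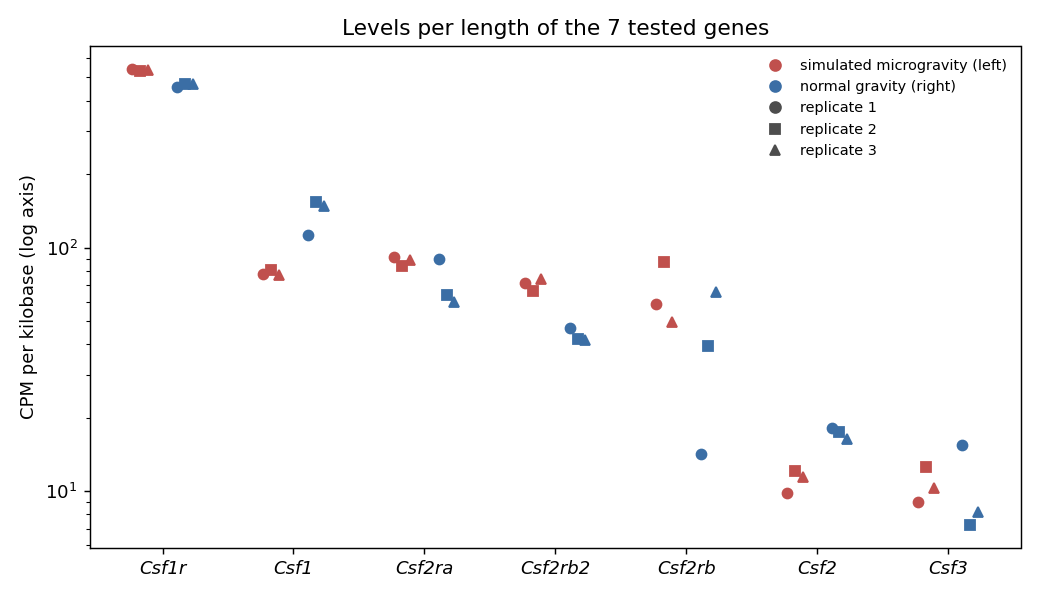
Level of each of the 7 tested genes in CPM per kilobase of gene length as deposited, on a log axis, with 1 point per library, simulated microgravity on the left of each gene and normal gravity on the right. Csf1r lies between 458 and 543 in all 6 libraries, above every other gene, and the points of Csf2rb spread widely in both groups.

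The comparison asked which of the 8 genes change in simulated microgravity relative to normal gravity. Csf2rb2 rose, and none of the other 6 tested genes passed edgeR's quasi-likelihood test with Benjamini-Hochberg adjustment over all genes. That is 1 of 7, against 1.52% of all 14509 tested genes called in either direction and 1.16% called as higher. 3 of the 7 had an unadjusted p under 0.05, Csf2rb2 as higher and Csf1 and Csf2 as lower, against 16.0% of all tested genes (8.55% higher and 7.48% lower). Without normal gravity replicate 1, 5 of 7 passed: Csf2rb2, Csf2ra and Csf1r were higher and Csf1 and Csf2 were lower, in a comparison that called 30.8% of 14809 genes (15.7% higher and 15.1% lower). DESeq2 on all libraries called 3 of the 7, Csf2rb2 higher and Csf1 and Csf2 lower, against 8.48% of all genes (4.92% higher and 3.56% lower). With each library's trend on gene length removed, Csf1 was the 1 gene called, as lower, against 4.98% of all genes (2.61% higher and 2.37% lower). The groups did not overlap in CPM for 4 of the 7 genes, Csf1, Csf2, Csf1r and Csf2rb2, against 27.3% of all tested genes (14.4% with simulated microgravity higher and 12.9% with it lower).

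**Figure D2:**
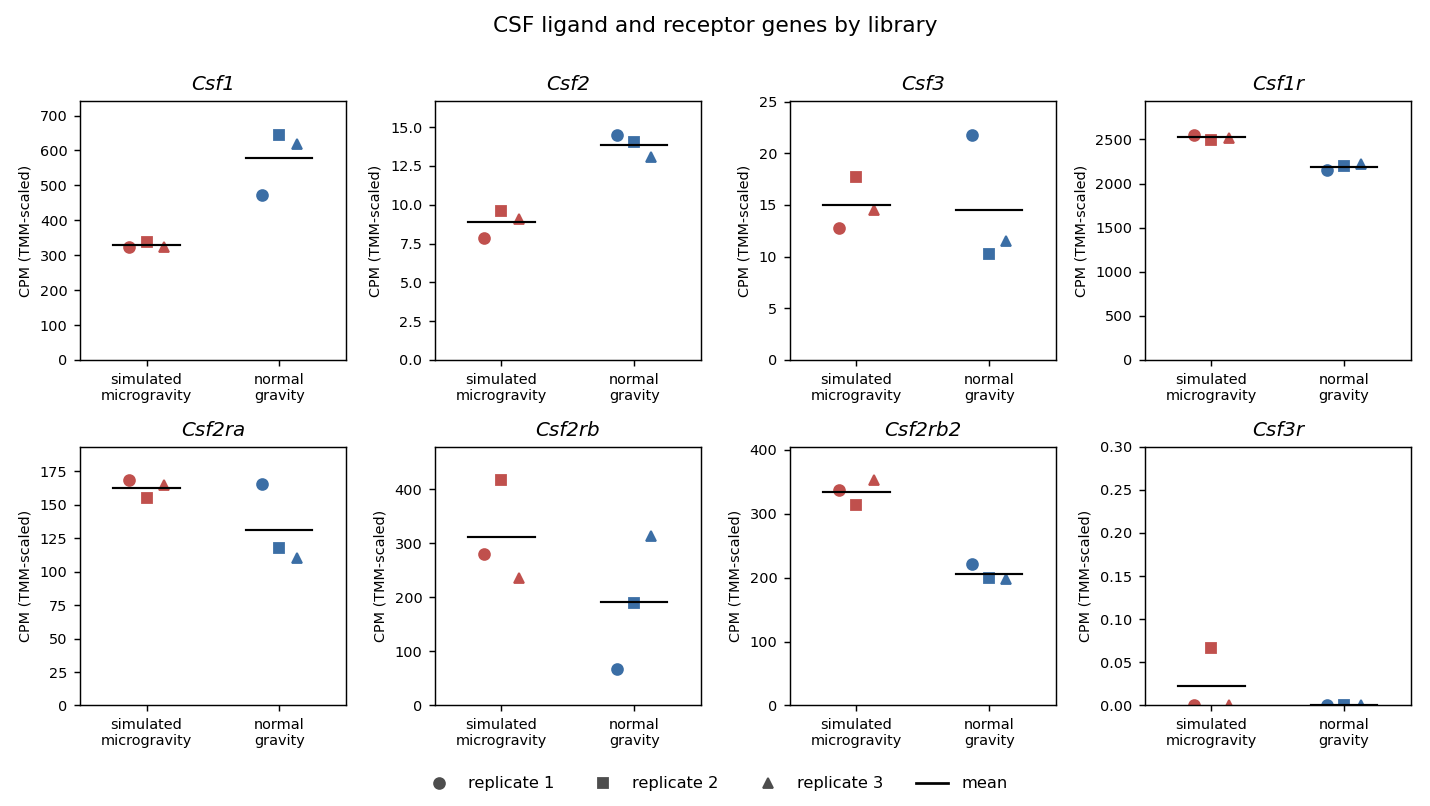
CPM of each of the 8 genes by library, with 1 point per library and the mean of each group as a line, simulated microgravity on the left and normal gravity on the right of each panel. The groups do not overlap for Csf1, Csf2, Csf1r and Csf2rb2, and normal gravity replicate 1 stands away from replicates 2 and 3 for Csf1, Csf3 and Csf2ra, while all 3 normal gravity libraries spread for Csf2rb.

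Among the ligands, Csf1 and Csf2 had lower levels in every simulated microgravity library, and Csf3 did not separate the groups. Csf1, the macrophage growth factor gene (ENSMUSG00000014599, chr3:107741048-107760469 on the minus strand), had 324, 339 and 323 CPM in simulated microgravity, against 472, 645 and 617 CPM at normal gravity. The lowest value at normal gravity was that of replicate 1, and it still lay above all 3 simulated microgravity values. The log2 fold change of Csf1 was -0.81 (SE 0.14, adjusted p = 0.0558 in edgeR), so it did not pass. Csf1 passed with normal gravity replicate 1 left out (-0.94, SE 0.041, adjusted p = 0.000128), in DESeq2 (-0.82, adjusted p = 0.000174) and in a fit that removed each library's trend on gene length (-0.89, adjusted p = 0.00552), and did not pass when any of the other 5 libraries was left out.

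Csf2, which encodes GM-CSF (ENSMUSG00000018916, chr11:54247271-54249667, minus strand), had 7.86, 9.62 and 9.09 CPM in simulated microgravity, against 14.5, 14.0 and 13.1 CPM at normal gravity, from 267 to 472 counts per library. Here normal gravity replicate 1 stood with the other libraries of its group. For Csf2 the log2 fold change was -0.65 (SE 0.14, adjusted p = 0.0872 in edgeR), and it passed without that library at -0.61 (adjusted p = 0.0126) and in DESeq2 at -0.65 (adjusted p = 0.0013). Gm12223, which overlaps Csf2 on the other strand, had 3 counts in normal gravity replicate 1 and 0 elsewhere. Csf3, which encodes G-CSF (ENSMUSG00000038067, chr11:98701263-98703629, plus strand), had 12.8, 17.7 and 14.5 CPM in simulated microgravity, against 21.8, 10.2 and 11.5 CPM at normal gravity. Normal gravity replicate 1 was the highest library of all and the other 2 of its group the lowest, so the groups overlapped. In the fit Csf3 had 0.046 as its log2 fold change (SE 0.31, adjusted p = 0.968 in edgeR), and 0.46 (SE 0.16, adjusted p = 0.0721) without normal gravity replicate 1.

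**Figure D3:**
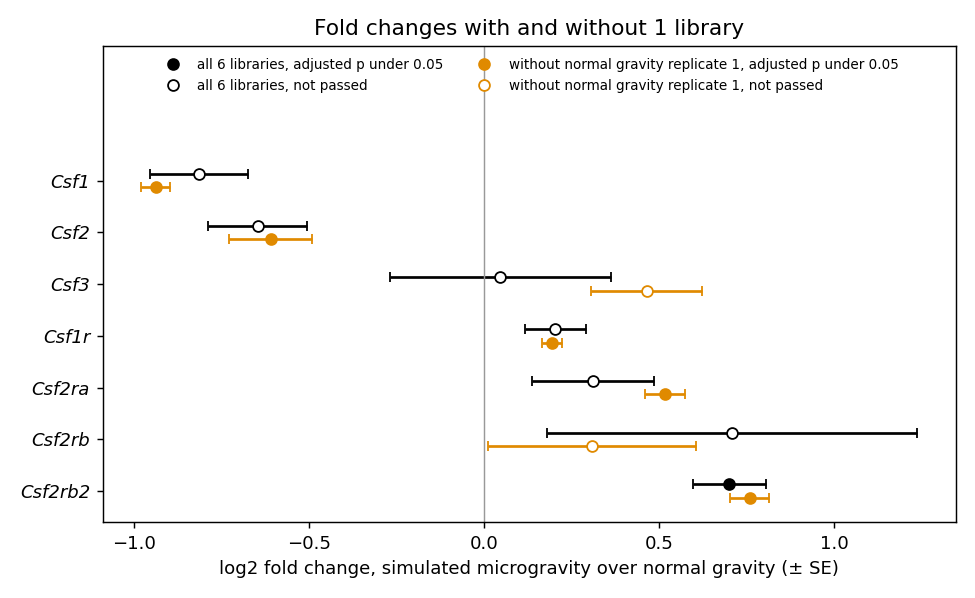
Log2 fold change of the 7 tested genes, simulated microgravity over normal gravity, with SE as bars, from all 6 libraries (black) and without normal gravity replicate 1 (orange), filled where the adjusted p was under 0.05. Csf2rb2 is filled in both, and Csf1, Csf2, Csf1r and Csf2ra are filled only without that library.

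The 4 tested receptor genes had higher mean levels in simulated microgravity, and the difference of Csf2rb2 was the one that passed. Csf2rb2 (ENSMUSG00000071714, chr15:78282507-78305721, minus strand) had 338, 314 and 352 CPM in simulated microgravity, against 221, 199 and 197 CPM at normal gravity. The groups stood well apart and normal gravity replicate 1 lay near the rest of its group. The log2 fold change of Csf2rb2 was 0.70 (SE 0.10, adjusted p = 0.0373 in edgeR), and 0.76 (SE 0.056, adjusted p = 0.000568) without normal gravity replicate 1. The call was lost when any other library was left out (log2 fold changes 0.66 to 0.75, adjusted p from 0.157 to 0.255), when the trend on gene length was removed (0.57, adjusted p = 0.099) and without the filter on low counts (0.70, adjusted p = 0.0562). Beside these values, 1 of 13 tested macrophage markers was higher and none lower (Mpeg1, log2 fold change 0.99, adjusted p = 0.0401 in edgeR). Without normal gravity replicate 1, 7 were higher and none lower. Over all tested genes, 1.16% were higher and 0.365% lower with all libraries, and 15.7% were higher and 15.1% lower without that library. Other marker lists moved in either direction, most of them through 1 gene. Neutrophil markers, 3 of 10 tested and Mpo and Retnlg at 0, summed to 67.8 to 77.7 CPM in simulated microgravity and 11.6 to 44.0 CPM at normal gravity, with 44.0 CPM in replicate 1. S100a8 made up nearly all of that sum (70.8 CPM in simulated microgravity and 20.97 CPM at normal gravity, adjusted p = 0.207 in edgeR). It was 2.76 log2 units higher in simulated microgravity without normal gravity replicate 1 (adjusted p = 8.89e-05 in edgeR). The others were near 1 CPM or less. Of these, Ltf, S100a9, Ngp and Ly6g were higher on average in simulated microgravity, and Camp, Elane and Prtn3 were lower. Endothelial markers, 5 of 8 tested and Tek, Erg and Stab2 at 0, summed to 50.1 to 61.8 CPM in simulated microgravity and 22.1 to 24.7 CPM at normal gravity. Vwf carried that difference (50.8 CPM in simulated microgravity and 16.5 CPM at normal gravity, adjusted p = 0.00886), while Pecam1 averaged 1.81 CPM in simulated microgravity and 2.47 CPM at normal gravity. Fibroblast and stellate cell markers, 5 of 10 tested and Lum at 0, summed to 77.3 to 79.9 CPM in simulated microgravity and 52.4 to 69.3 CPM at normal gravity, mostly from Pdgfra. Dendritic cell markers, 2 of 8 tested and Flt3 and Cd209a at 0, summed to 26.2 to 29.95 CPM in simulated microgravity and 35.0 to 38.5 CPM at normal gravity. Cholangiocyte markers, 1 of 6 tested and Sox9 and Cftr at 0, summed to 1440 to 1521 CPM in simulated microgravity and 2367 to 3417 CPM at normal gravity, nearly all of it Spp1. The 3417 CPM belonged to normal gravity replicate 1. The part of these cell types in the levels of the receptor genes was not tested.

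Csf1r, the receptor of CSF1 (ENSMUSG00000024621, chr18:61105572-61132149, plus strand), had 2552, 2495 and 2521 CPM in simulated microgravity, against 2153, 2204 and 2217 CPM at normal gravity. The groups did not overlap, and the spread within each was small, with a coefficient of variation of 1.12% in simulated microgravity and 1.54% at normal gravity. For Csf1r the log2 fold change was 0.20 (SE 0.087, adjusted p = 0.326 in edgeR), and 0.089 with the gene length trend removed. It passed at 0.19 (SE 0.028, adjusted p = 0.00492) without normal gravity replicate 1. Hmgxb3 overlaps 871 bases of Csf1r on the other strand, with 2581 to 2774 counts in simulated microgravity and 1733 to 3114 at normal gravity, against 68591 to 86694 for Csf1r over all libraries, and the sources used here do not say whether counting used strand.

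Csf2ra, the ligand-binding chain of the GM-CSF receptor (ENSMUSG00000059326, chr19:61224402-61228418, minus strand), had 168, 155 and 165 CPM in simulated microgravity, against 166, 118 and 110.2 CPM at normal gravity. Normal gravity replicate 1 lay within the range of simulated microgravity, and replicates 2 and 3 lay below it. For Csf2ra it came to 0.31 log2 units (SE 0.17, adjusted p = 0.461 in edgeR) with all libraries and 0.52 (SE 0.058, adjusted p = 0.00209) without normal gravity replicate 1. Csf3r, the G-CSF receptor gene (ENSMUSG00000028859, chr4:126024550-126044440, plus strand), was not tested because its counts were too low.

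Csf2rb, the gene of the shared beta chain (ENSMUSG00000071713, chr15:78325798-78353847, plus strand), was the most variable of the 7 tested genes within both groups. It had 280.2, 416 and 236 CPM in simulated microgravity, against 67.8, 189.7 and 314 CPM at normal gravity, with coefficients of variation of 30.2% in simulated microgravity and 64.6% at normal gravity. The groups overlapped, and even normal gravity replicates 2 and 3, which lay close to each other for the other genes, differed here. The log2 fold change of Csf2rb was 0.71 (SE 0.53, adjusted p = 0.592 in edgeR) with all libraries, 0.31 (SE 0.30, adjusted p = 0.482) without normal gravity replicate 1 and 1.27 (adjusted p = 0.36) without normal gravity replicate 3. Csf2rb2 lies 20076 bases away on the other strand, and its coefficients of variation were 5.82% in simulated microgravity and 6.5% at normal gravity. In both groups the order of the libraries by Csf2rb2 was the reverse of their order by Csf2rb, although normal gravity replicates 2 and 3 barely differed in Csf2rb2.

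The coding sequences of these neighbours are close to identical, which bears on how reads can be assigned to each. Over 2628 aligned coding bases of the longest coding transcripts in GENCODE M21, 125 differed (95.2% identity, with 66 gapped columns left out). Of all stretches of 50 bases in the Csf2rb coding sequence, 26.0% occurred unchanged in Csf2rb2. Over the whole transcripts, 18.4% of the stretches of Csf2rb and 19.0% of those of Csf2rb2 occurred in the other. The first stretch of 150 bases with an identity near that of the whole is shown, from coding base 7 to 156, with the 7 differing bases in capitals.
Csf2rb: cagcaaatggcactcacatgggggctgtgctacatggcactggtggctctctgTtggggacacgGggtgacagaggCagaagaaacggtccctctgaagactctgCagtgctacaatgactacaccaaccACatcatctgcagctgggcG
Csf2rb2: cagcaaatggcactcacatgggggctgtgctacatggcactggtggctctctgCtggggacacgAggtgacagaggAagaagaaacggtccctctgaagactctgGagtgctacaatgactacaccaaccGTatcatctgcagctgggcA
The treatment of reads with several matches was not given in the sources used here, so the counts of each beta chain gene are uncertain. Their sum was 618, 730.1 and 589 CPM in simulated microgravity, against 289, 389 and 511 CPM at normal gravity. The groups did not overlap in the sum, a value formed after the counts of both genes were seen and not tested.

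3 ratios within a library, which need no scaling between libraries, set these genes against each other. The log2 ratio of Csf1 to Csf1r per length was -2.80, -2.71 and -2.79 in simulated microgravity, against -2.02, -1.60 and -1.67 at normal gravity. The ratio was lower in 3 of 3 simulated microgravity libraries than in any at normal gravity, with a mean of -2.77 ± 0.051 in simulated microgravity and -1.76 ± 0.22 at normal gravity (SD, n = 3 each). The difference of -1.01 had p = 0.1 in an exact two-sided permutation test, the smallest p that 3 against 3 allows (p = 0.3 adjusted over the 3 ratios), so this design could not pass the threshold.

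The share of Csf2rb2 in the counts of both beta chain genes was 54.7%, 43.0% and 59.9% in simulated microgravity, against 76.6%, 51.2% and 38.6% at normal gravity. The groups overlapped, and the means differed by -2.95 percentage points, less than the SD of either group (exact two-sided permutation test, p = 0.9, adjusted p = 0.9). It was 7.60 points, in the other direction, without normal gravity replicate 1. The log2 ratio of the summed beta chain genes to Csf2ra per length was 0.51, 0.87 and 0.47 in simulated microgravity, against -0.56, 0.36 and 0.85 at normal gravity. The difference of 0.40 rested on normal gravity replicate 1 (exact two-sided permutation test, p = 0.4, adjusted p = 0.6), and it was 0.016 without that library.

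**Figure D4:**
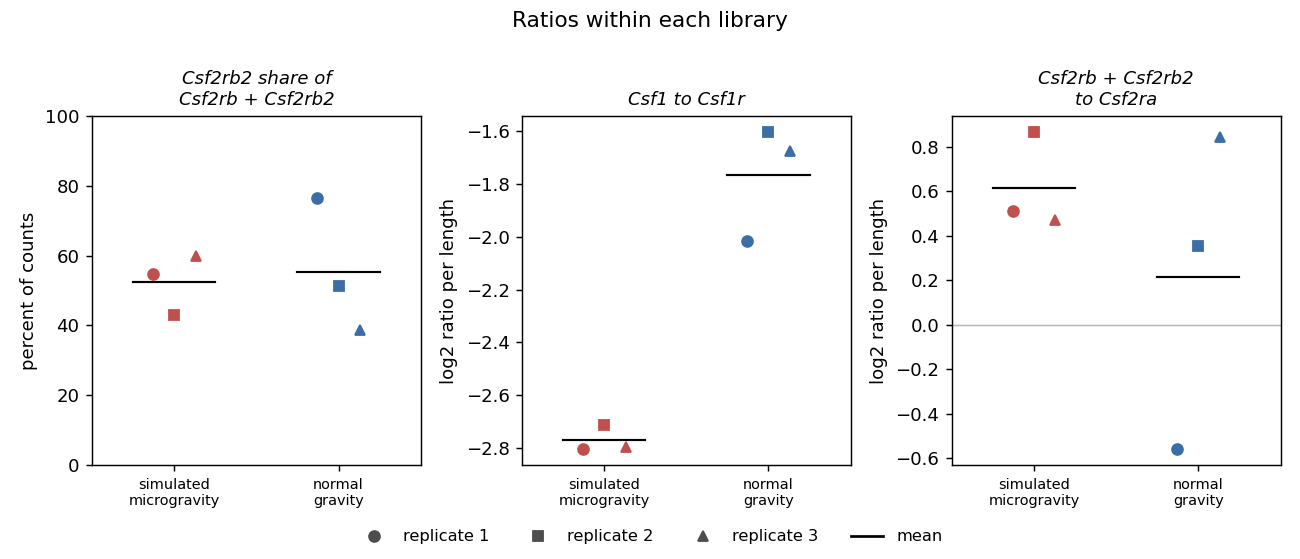
Ratios within each library: the percent of Csf2rb2 in the counts of Csf2rb and Csf2rb2, the log2 ratio of Csf1 to Csf1r per length, and the log2 ratio of Csf2rb plus Csf2rb2 to Csf2ra per length, with 1 point per library and the group mean as a line, simulated microgravity left of normal gravity. The Csf1 to Csf1r ratio separates the groups, from -2.80 to -2.71 in simulated microgravity against -2.02 to -1.60 at normal gravity, and the other ratios overlap.

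The partners of these receptors were mostly low or absent. Il34, the other ligand of CSF1R, had 0.206, 0.628 and 0 CPM in simulated microgravity, against 1.00, 0.653 and 0.557 CPM at normal gravity. The groups overlapped, and the log2 fold change was -1.41 (SE 0.98, adjusted p = 0.56 in edgeR). Il3, its receptor chain gene Il3ra and Il5ra were at 0 in every library, for an upper limit of 0.0154 CPM over the 6 together, and Il5 had 0.0628 CPM in normal gravity replicate 1 and 0 elsewhere. Such floors cover counting error only. Pdgfrb, a PDGF receptor gene 20510 bases from Csf1r on the same strand, had 5.71, 6.15 and 5.54 CPM in simulated microgravity, against 2.32, 1.84 and 2.63 CPM at normal gravity. It rose by 1.36 log2 units (SE 0.21, adjusted p = 0.0396 in edgeR), and that call was lost when any library other than normal gravity replicate 1 was left out (adjusted p from 0.112 to 0.23) or without the filter on low counts (adjusted p = 0.0589). It was the 1 gene to pass of 7 tested from the list of type III receptor kinases and their ligands, whose median was 0.068. The other 6 did not pass, among them the PDGF gene Pdgfb at -0.35 (adjusted p = 0.178, and 0.0465 with the gene length trend removed). Pdgfb passed in edgeR without normal gravity replicate 1 (-0.32, adjusted p = 0.0148). Without normal gravity replicate 1 the list held 2 higher genes and 1 lower one (median -0.15), in a fit that called 15.7% of all tested genes higher and 15.1% lower.

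Few signalling genes downstream of the receptors were called with all libraries, and which ones depended on the method. Neither edgeR nor limma-voom called any of 33 tested genes of CSF1 receptor signalling. DESeq2 called 3 as higher, and edgeR with the gene length trend removed called 1 as higher, Pik3r5 (adjusted p = 0.0148). An unadjusted p under 0.05 in edgeR was reached by 6 with higher and none with lower levels, against the 8.55% and 7.48% of all tested genes given above. Their median log2 fold change was 0.16, against -0.021 for all tested genes. Pik3r5, a regulatory subunit of a phosphoinositide 3-kinase, stood at 0.60 (SE 0.12, adjusted p = 0.074) and the Src family kinase gene Fgr at 1.00 (SE 0.24, adjusted p = 0.115). Both passed in edgeR without normal gravity replicate 1, Pik3r5 at 0.51 (adjusted p = 0.000791) and Fgr at 1.33 (adjusted p = 0.00022). Tyrobp, which encodes the adaptor DAP12, had 305, 291 and 298 CPM in simulated microgravity, against 451, 204 and 211 CPM at normal gravity, where replicate 1 was the highest library of all (log2 fold change 0.045, adjusted p = 0.969, and 0.52 with adjusted p = 0.000686 without replicate 1). Without normal gravity replicate 1, 13 of the 33 were higher and 2 lower (median 0.16, against 0.0074 for all genes). Over all tested genes, 15.7% were higher and 15.1% lower without that library. DESeq2 called 4.92% higher and 3.56% lower, and edgeR with the gene length trend removed 2.61% higher and 2.37% lower. These shares, and those by unadjusted p, also hold for each list below.

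The JAK-STAT arm and its inhibitors, 19 genes, gave no call in edgeR or limma-voom and 2 in DESeq2, both higher. With the gene length trend removed, edgeR called 1 as higher, Mcl1 (adjusted p = 0.0422), and 2 as lower. The list's median log2 fold change was 0.19, and 3 on each side of 0 had an unadjusted p under 0.05. The lowest p belonged to Mcl1, a survival gene of the BCL2 family, at 0.65 (SE 0.12, adjusted p = 0.0602 with all libraries in edgeR), and to the phosphatase gene Ptpn1 at 0.46 (SE 0.095, adjusted p = 0.0796). Both passed in edgeR without normal gravity replicate 1, Mcl1 at 0.74 (adjusted p = 0.000727) and Ptpn1 at 0.49 (adjusted p = 0.00181). Without normal gravity replicate 1, 6 were higher and 4 lower (median 0.021), against 15.7% higher and 15.1% lower over all tested genes. Transcription factor genes known to act at the Csf1r locus gave no call among 10 in edgeR or limma-voom and 1 higher in DESeq2, with a median of 0.045, and with the gene length trend removed 1 was higher, Ets2 (adjusted p = 0.0284). By unadjusted p under 0.05, 2 of them stood above 0 and 1 below. Spi1, which encodes the factor whose motif core is marked above, had a log2 fold change of -0.089 (adjusted p = 0.871), Ets2 one of 0.53 (SE 0.089, adjusted p = 0.0529) and Irf8 one of -0.58 (SE 0.19, adjusted p = 0.218). In edgeR without normal gravity replicate 1, Ets2 (0.52, adjusted p = 0.000545) and Irf8 (-0.36, adjusted p = 0.045) passed and Spi1 did not (0.14, adjusted p = 0.0965). Without normal gravity replicate 1, 3 of these 10 were higher and 2 lower.

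Among 8 tested genes known to respond to GM-CSF in myeloid cells, 1 fell, none rose and the other 7 missed the threshold, around a median of -0.46 log2 units. DESeq2 called 3 of the 8 as lower, edgeR with the gene length trend removed called 2 as lower, and 5 were lower and none higher by an unadjusted p under 0.05. The one that fell was Ccl22, a chemokine gene, with 0.118, 0.198 and 0.185 CPM in simulated microgravity, against 4.02, 2.38 and 3.16 CPM at normal gravity. Its groups stood far apart at these low levels, and the log2 fold change was -4.23 (SE 0.37, adjusted p = 0.00733 in edgeR). The call was lost when any simulated microgravity library or normal gravity replicate 3 was left out (adjusted p from 0.0507 to 0.0838). Itgax, the integrin gene that encodes CD11c, stood at -0.63 (SE 0.14, adjusted p = 0.092), and at -0.71 (adjusted p = 0.0337) with the gene length trend removed. It also passed in edgeR without normal gravity replicate 1 (-0.67, adjusted p = 0.00873). Without normal gravity replicate 1, 4 of the 8 were lower and 1 higher (median -0.47), and the 1 higher was Pparg at 2.21 (adjusted p = 0.00703). Over all tested genes, 15.1% were lower and 15.7% higher in that fit.

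For 12 early response and growth genes that CSF1 induces in macrophages, edgeR and limma-voom gave no call, and DESeq2 1 in each direction, as did an unadjusted p under 0.05 in edgeR. Their median was -0.17, and with the gene length trend removed 1 was higher and 2 were lower, Ccnd1 (adjusted p = 0.0283) among these. Ccnd1, the cyclin D1 gene, stood at -1.29 (SE 0.26, adjusted p = 0.0747), and at -1.53 (adjusted p = 0.00022 in edgeR) without normal gravity replicate 1. Without normal gravity replicate 1, 7 of the 12 were higher and 2 lower, and the median was 0.48, in the other direction. Over all tested genes, 15.7% were higher and 15.1% lower in that fit. Inducers of CSF expression and their receptors, such as TNF and interleukin 1, were listed with 12 genes, of which edgeR and limma-voom called none and DESeq2 called 1 as higher. Their median was 0.11, and 2 had an unadjusted p under 0.05, both above 0, and none was called with the gene length trend removed. Tnfrsf1b, a TNF receptor gene, stood at 0.70 (SE 0.14, adjusted p = 0.0782) and Il1a, the interleukin 1 alpha gene, at 0.30 (SE 0.11, adjusted p = 0.238), and 6 were higher and 1 lower without that library. Among the higher ones there were Tnfrsf1b at 0.84 (adjusted p = 0.000572 in edgeR) and Il1a at 0.24 (adjusted p = 0.0145). Among 9 genes for proteins that govern the decay of cytokine mRNAs such as those of Csf2 and Csf3, edgeR and limma-voom likewise called none and DESeq2 called 1 as higher. Their median was -0.039, and 1 had an unadjusted p under 0.05, above 0, and with the gene length trend removed 1 was higher, Zfp36l2 (adjusted p = 0.0448). Zfp36l2 stood at 0.61 (SE 0.14, adjusted p = 0.0999) and Zc3h12a, which encodes the ribonuclease regnase, at 0.38 (SE 0.16, adjusted p = 0.313), and 4 were higher and 1 lower without that library. Among these 4 were Zfp36l2 at 0.49 (adjusted p = 0.00123 in edgeR) and Zc3h12a at 0.55 (adjusted p = 0.00235).

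**Figure D5:**
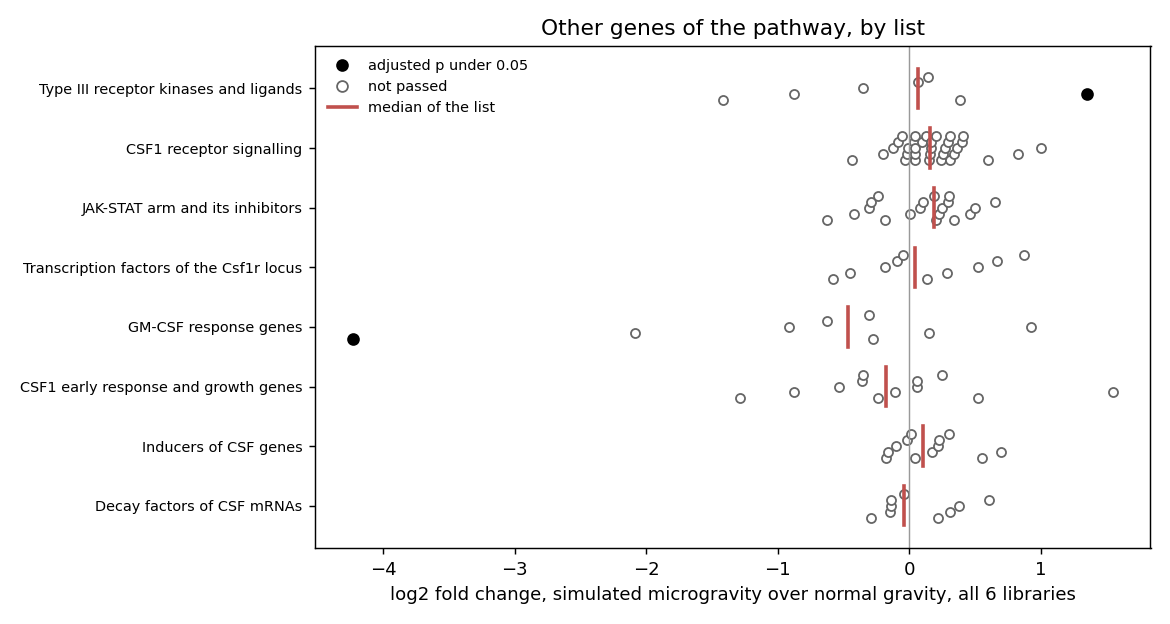
Log2 fold change of each tested gene of 8 lists around the CSF receptors, simulated microgravity over normal gravity with all 6 libraries, with 1 point per gene, filled where the adjusted p was under 0.05, and the median of each list as a vertical line. The filled points are Pdgfrb at 1.36 and Ccl22 at -4.23, and the medians lie between -0.46 and 0.19.

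For each tested gene, the 3 most alike among 9610 tested genes with a mean of at least 5 CPM were found by the root mean square difference of centred log2 CPM over the 6 libraries, as a description of these libraries. Csf1 was nearest to Icam1, Vdr and Ifrd2 (0.072 to 0.087 log2 units), and Csf2 to Lsm6, Bmf and Slc7a5 (0.058 to 0.066). Csf1r was nearest to Slc10a3, Bag3 and Rab31 (0.017 to 0.021), Csf2ra to Plbd2 and Tcirg1 (0.031 and 0.041), Csf2rb2 to Mospd1, Trp53inp2 and P2rx4 (0.043 to 0.050) and Csf3 to Cyp2d22, Dusp5 and Mgst3 (0.065 to 0.079). The pattern of Csf2rb had no such close companion, with Golim4, Zmym5 and Ppp1r12a at 0.21 to 0.25 log2 units.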

How the data were processed

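The labels' protocols name Trizol for lysis and an mRNA kit that started from 1 µg of RNA, and the submitters' processing notes list fastp 2.0 and HISAT2 2.1.0. Which program counted the reads, on which genome build, and how it handled strand and multiple matches was not given in the sources used here. Raw counts per gene make up the deposited table. The authors' gene length equals that of the longest GENCODE M21 transcript for 97.2% of 53705 shared genes, and start and end are equal for 97.1%, so coordinates are those of GRCm38 as listed. Csf1r, Csf2ra and Csf2rb are among the genes whose start or end differs from M21, and the lengths of Csf2ra and Csf2rb differ too. Of 53801 lines, 1 held no gene and was left out. Count columns whose names hold C were read as control (normal gravity) and those with R as random positioning machine. The labels do not say this, and all directions depend on it.

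Counts passed filterByExpr and were scaled by TMM. The groups were compared in edgeR 4.0.16 (R 4.3.3) by the two-sided quasi-likelihood test, adjusted by Benjamini-Hochberg over 14509 genes, with 0.05 as the threshold. SE was obtained as the size of the log2 fold change over the square root of F. Sums of marker lists are CPM by library total. Alternatives were DESeq2 size factors, library size scaling, no filter, DESeq2 1.42.0, limma-voom (limma 3.58.1), the replicate number as a block, removal of each library's trend of log2 CPM (prior count 2) on gene length, leaving out each library and, chosen after seeing the data, the longest M21 transcript as gene length. The steps were tested on simulated data. Named genes are the 8 genes, fixed partners, the 2 of lowest p in each pathway list, the 3 most alike and overlapping genes. Spi1, Pparg and the markers were named after their values were seen. The 8 genes, the lists and the motifs were chosen with earlier results of these data or the sequences known. For Csf2ra, 1 of the most alike genes is not reported here.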

Additional observations from a re-analysis of the deposited data

How the results depend on the processing

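Leaving out 1 library moved the count of called genes among the 8 from 0 to 5, and that of the 108 tested genes of all pathway lists from 0 to 57, against 1 and 2 with all libraries, with the highest values without normal gravity replicate 1. The cause was not tested. Both counts were 0 with the replicate block. Without the filter on low counts they were 0 and 1, in DESeq2 3 and 14, and with the gene length trend removed 1 and 12, where the 1 called gene of the 8 was Csf1 and not Csf2rb2. Log2 fold changes without 1 library ran from -0.94 to -0.73 for Csf1, -0.71 to -0.57 for Csf2, 0.19 to 0.21 for Csf1r, 0.20 to 0.52 for Csf2ra, 0.31 to 1.27 for Csf2rb and 0.66 to 0.76 for Csf2rb2. That of Csf3 ran from -0.15 to 0.46 and was below 0 without normal gravity replicate 2 (-0.15), normal gravity replicate 3 (-0.096) or simulated microgravity replicate 2 (-0.084), and that of Tyrobp was below 0 without normal gravity replicate 2 (-0.15) or 3 (-0.14). Csf1 was called in DESeq2 (-0.82) and with the length trend removed (-0.89), and Csf2 in DESeq2 (-0.65). Csf2rb2 was not called without the filter (0.70), with the length trend removed (0.57) or with the replicate block (0.70, adjusted p = 0.255). The Csf2rb2 share differed by -11.4 to 7.60 percentage points without 1 library, and was higher in simulated microgravity without its replicate 2 (1.81) or normal gravity replicate 1 (7.60). The Csf1 to Csf1r ratio differed by -1.13 to -0.92 and the beta chain to Csf2ra ratio by 0.016 to 0.72. With the longest M21 transcript as length, a setting chosen after seeing the data, these ratios differed by -1.01 and 0.40, as with the deposited lengths. Other scalings changed no call among the 8 and moved the median of all genes by less than the 0.1 log2 units above which a shift is given. The shared replicate numbers showed no sign of pairing the libraries. Deviations from the group means correlated at -0.073, 0.025 and -0.090 for numbers 1, 2 and 3, and not every library correlated best with its own number. With 3 libraries per group, such values cannot exclude a pairing. Depth limits statements on Csf3r, Il3, Il3ra, Il5 and Il5ra, which lay at or under 3 counts per library.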
